A study of Homo sapiens with 10 samples.

Results

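The K rep KO list of MeDIP peaks was set against the K non-rep KO list, from HEK293T cells, a human embryonic kidney line. The unit counted was the peak on chromosomes 1 to 22 and X. There were 59098 such peaks in K rep KO, against 53396 in K non-rep KO, which is 112494 of the 284960 peaks in the 5 lists used. Chromosome 11 was kept apart: it held 1321 peaks of K rep KO and 2146 of K non-rep KO, and the other chromosomes held 57777 of K rep KO and 51250 of K non-rep KO. A peak was called shared when it overlapped a peak of the other list by at least 1 bp.

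In MeDIP-seq, an antibody to 5-methylcytosine pulls methylated fragments out of sonicated DNA before sequencing. The other conditions were EV, KD and WT, and each of the 5 conditions had 1 immunoprecipitated (IP) library and 1 input library. On the chromosomes counted, EV had 87815 peaks, KD 53919 and WT 30732. Peak numbers in these lists, and overlaps with them, depend on these lengths. The series' title concerns KCNQ1OT1, and the knockdown is called KCNQ1OT1_K in its design text. The labels state neither which bases were deleted in either knockout nor how rep and non-rep are meant, nor whether a line is 1 clone, and these names are kept as given. With 1 list per condition no value below has a replicate, no test across samples can be made and no p-value is given. The 95% intervals cover counting error only, and neighbouring peaks are not independent, so the intervals are too narrow. Peak names inside both knockout lists start with other letters than the lists' own names, and every direction below rests on the lists' names.

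KCNQ1OT1 is a long RNA without a coding function, made from an imprinted domain of chromosome 11, antisense to the potassium channel gene KCNQ1, and it is known for silencing neighbouring genes on the paternal chromosome. Methylation of cytosine in CG pairs is dense over silent repeats and gene bodies and sparse over most active promoters rich in CG. An antibody-based peak marks a stretch where methylated CG pairs lie close together, and gives no methylation level of a single base.

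Promoter windows were used to describe sequences that such peaks touch, often only at an edge. RefSeq promoter windows (GRCh38.p14) run from 250 bases before to 50 bases after a gene's start. Outside chromosome 11, peaks of both knockouts touched 341 of 32907 windows, peaks of K rep KO alone touched 609 and peaks of K non-rep KO alone touched 369. The median number of CG pairs in a window was 17 where both knockouts had a peak, 15 where K rep KO alone did and 12 where K non-rep KO alone did, beside 14 over all windows. On chromosome 11 the windows touched were 10 by both, 6 by K rep KO alone and 32 by K non-rep KO alone, of 1882.

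The windows printed here are those touched by the strongest promoter peaks of each kind by the authors' −log10 q, among named genes. Both chromosome 11 windows lie in PAX6. Capitals mark CG, the pair that can be methylated, searched on the letters as printed (CG reads the same on both strands). They mark the whole window, not only the part under the peak.
CCDC200, peak in K rep KO alone, chr17:43231220-43231519, minus strand: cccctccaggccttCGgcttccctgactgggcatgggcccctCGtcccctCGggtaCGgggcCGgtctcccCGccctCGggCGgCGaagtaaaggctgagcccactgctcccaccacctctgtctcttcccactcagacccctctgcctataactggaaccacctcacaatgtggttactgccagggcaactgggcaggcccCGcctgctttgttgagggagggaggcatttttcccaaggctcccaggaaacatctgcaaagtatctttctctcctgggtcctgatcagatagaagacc
SUPT20HL2, peak in K non-rep KO alone, chrX:24314020-24314319, minus strand: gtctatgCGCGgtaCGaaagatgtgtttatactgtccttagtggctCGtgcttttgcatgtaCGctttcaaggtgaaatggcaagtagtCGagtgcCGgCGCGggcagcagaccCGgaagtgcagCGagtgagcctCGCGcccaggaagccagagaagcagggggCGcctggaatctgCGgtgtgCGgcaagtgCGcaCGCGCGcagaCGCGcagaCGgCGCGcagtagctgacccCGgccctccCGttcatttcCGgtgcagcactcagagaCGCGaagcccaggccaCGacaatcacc
PAX6, peak in K rep KO alone, chr11:31807573-31807872, minus strand: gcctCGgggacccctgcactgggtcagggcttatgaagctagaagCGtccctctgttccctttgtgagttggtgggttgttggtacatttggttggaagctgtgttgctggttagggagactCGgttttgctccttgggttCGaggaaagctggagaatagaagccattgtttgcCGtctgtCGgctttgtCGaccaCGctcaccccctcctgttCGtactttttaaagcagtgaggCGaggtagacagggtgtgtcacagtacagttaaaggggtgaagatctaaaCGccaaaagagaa
PAX6, peak in K non-rep KO alone, chr11:31804992-31805291, minus strand: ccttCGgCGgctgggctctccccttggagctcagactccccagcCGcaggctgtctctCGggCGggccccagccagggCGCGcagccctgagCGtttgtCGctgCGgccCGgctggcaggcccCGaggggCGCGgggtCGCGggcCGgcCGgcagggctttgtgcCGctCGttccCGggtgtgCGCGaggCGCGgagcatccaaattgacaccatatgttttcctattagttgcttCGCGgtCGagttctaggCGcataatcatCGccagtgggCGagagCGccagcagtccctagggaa
TAF11L7, peak in both, chr5:17585709-17586008, minus strand: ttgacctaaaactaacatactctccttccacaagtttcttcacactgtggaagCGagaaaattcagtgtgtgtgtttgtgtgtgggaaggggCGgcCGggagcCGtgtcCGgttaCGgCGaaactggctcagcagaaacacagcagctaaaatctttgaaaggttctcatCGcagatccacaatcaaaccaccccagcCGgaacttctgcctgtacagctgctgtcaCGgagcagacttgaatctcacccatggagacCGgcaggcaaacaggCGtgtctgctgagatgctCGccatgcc

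The CCDC200 window held 10 CG pairs, and the K rep KO peak touched 33 of its bases, at chr17:43231487-43232351, with the authors' −log10 q of 60.6. No peak of EV, KD or WT touched that window. The SUPT20HL2 window, with 31 CG pairs, was touched over 59 bases by a K non-rep KO peak with a fold enrichment, also the authors', of 13.4, and also by peaks of EV and KD. PAX6, a transcription factor gene of eye and brain development, had a K rep KO peak over 154 bases of a window with 11 CG pairs (fold 4.46). A K non-rep KO peak (fold 5.44) touched 19 bases of another PAX6 window, with 32 CG pairs. An EV peak also touched this second window, while no peak of EV, KD or WT touched the PAX6 window of K rep KO. Each knockout thus had a peak touching a PAX6 window that the other knockout lacked. The CG numbers are those of whole windows. In the CCDC200 and SUPT20HL2 windows and the PAX6 window of K non-rep KO, most CG pairs lay outside the peak. The TAF11L7 window lay wholly inside peaks of both knockouts, EV, KD and WT. SUPT20HL2 and TAF11L7 belong to families of near-identical copies, and reads could be split between copies. The remaining windows taken by the same order, LOC124902313 on chromosome 9 (K rep KO alone), LOC124901643 on chromosome 7 (K non-rep KO alone) and LOC124900996 on chromosome 5 (both), are not described further.

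Outside chromosome 11, K rep KO had slightly more peaks than K non-rep KO, and it had them on every chromosome. The ratio was 1.13 (95% interval 1.11 to 1.14). Single chromosomes lay between 1.05 on chromosome 13 and 1.25 on chromosome 17, with a median of 1.11 over 22 chromosomes. Chromosome 17 had 4282 peaks in K rep KO, against 3432 in K non-rep KO, and chromosome 7 had 3997 of K rep KO and 3324 of K non-rep KO, a ratio of 1.20. On both, the interval lay above 1.13. On chromosome 1, with 5667 peaks of K rep KO and 5335 of K non-rep KO, it lay below, at 1.06 (1.02 to 1.10). IP depth, worked out from the deposited values, was 1.20 times higher in K rep KO. More depth and more methylated sites cannot be told apart from peak numbers.

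Chromosome 11 stood outside that range. It had 0.616 times as many peaks in K rep KO as in K non-rep KO (0.574 to 0.660), and relative to the other chromosomes the ratio was 0.546 (0.509 to 0.585). It held 2.24% of all K rep KO peaks and 4.02% of all K non-rep KO peaks, while its share was 4.06% in EV, 4.13% in KD and 4.20% in WT. The K rep KO list was thus the one that differed from the other 4 on this chromosome.

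**Figure D1:**
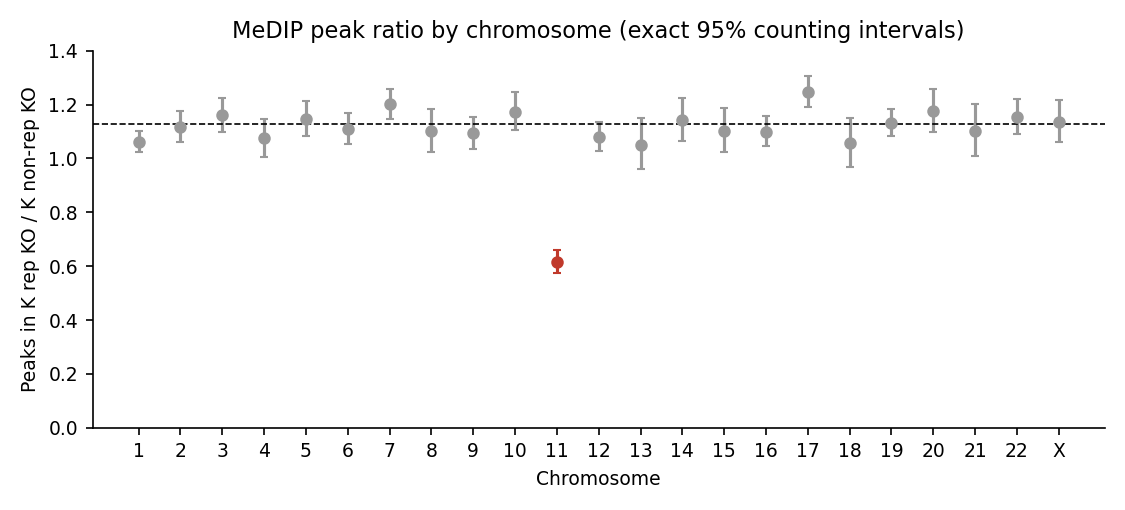
Ratio of the number of MeDIP peaks in K rep KO to that in K non-rep KO for each chromosome (points), with exact 95% counting intervals (bars); the dashed line is the ratio over all chromosomes other than 11, 1.13. Chromosome 11, in red, lies at 0.616, and the other 22 lie between 1.05 and 1.25.

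The lower number ran along the whole chromosome except around the centromere. From 50 to 55 Mb there were 288 peaks in K rep KO, against 273 in K non-rep KO, a ratio of 1.05. Without that segment the chromosome's ratio was 0.552. Within 1 Mb of KCNQ1OT1, 38 peaks of K rep KO and 91 of K non-rep KO gave 0.418 (0.278 to 0.616). From 1 to 5 Mb away, 100 peaks of K rep KO and 181 of K non-rep KO gave 0.552 (0.428 to 0.709). From 5 to 45 Mb, 201 peaks of K rep KO and 366 of K non-rep KO gave 0.549 (0.460 to 0.654). Beyond 45 Mb, without the centromeric segment, 694 of K rep KO and 1235 of K non-rep KO gave 0.562 (0.511 to 0.617). The intervals of these distances overlapped, so no gradient with distance from KCNQ1OT1 was resolved at these numbers. KCNQ1OT1, with 2 kb added at each end, had 0 peaks in both knockouts, and KCNQ1 held 9 in K rep KO, against 11 in K non-rep KO.

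**Figure D2:**
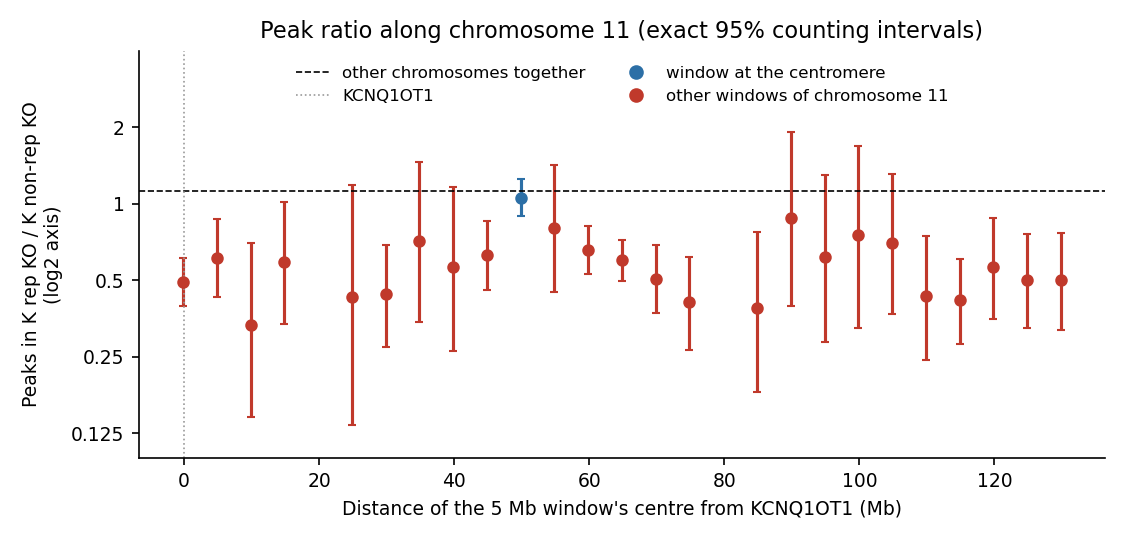
Ratio of K rep KO to K non-rep KO peaks in windows of 5 Mb along chromosome 11 with at least 20 peaks in the lists combined (log2 axis, exact 95% counting intervals), against the distance of the window's centre from KCNQ1OT1 in Mb. The window at the centromere (blue) lies at 1.05, and the windows in red lie between 0.333 and 0.875, all below the dashed line of the other chromosomes, 1.13.

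The scoring background moved with the chromosome 11 result. For each peak the summit pileup (fragments over the summit) and the background it was scored against were solved from the authors' fold and p. Among peaks that both knockouts share, 33.3% on chromosome 11 had the lowest background of the list in K rep KO, the highest share of 23 chromosomes, and the others lay between 2.60% and 21.1%. In K non-rep KO the share was 18.4% on chromosome 11, and the others lay between 3.27% and 26.0%. Without 50 to 55 Mb these shares on chromosome 11 were 38.6% in K rep KO, against 22.02% in K non-rep KO. The median summit pileup of shared peaks in K rep KO was 13 on chromosome 11 and 15 on the other chromosomes, and in K non-rep KO it was 13 on both. The median background in K rep KO was 1.42 on chromosome 11 and 1.95 elsewhere, and in K non-rep KO 1.70 on both. Fewer copies of chromosome 11 in the library and less methylated DNA per copy cannot be told apart from these lists, and the part of the background in the peak number was not tested.

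**Figure D3:**
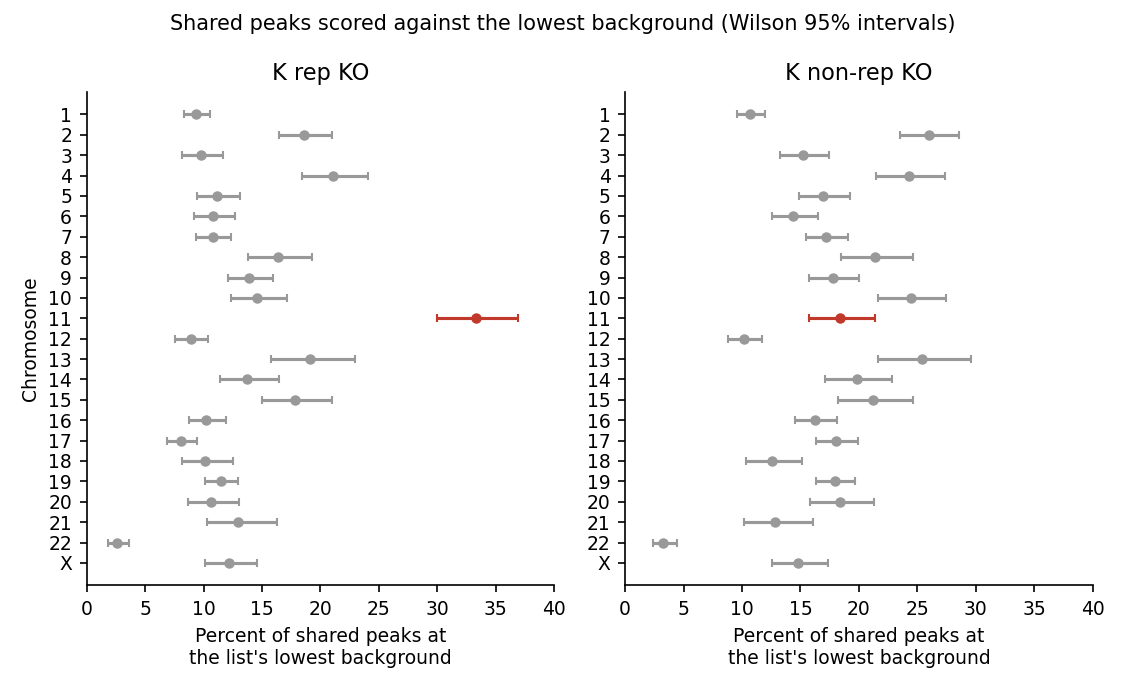
Percent of shared peaks scored against the lowest background of their list, by chromosome, in K rep KO (left) and K non-rep KO (right), with Wilson 95% intervals. Chromosome 11, in red, is at 33.3% in K rep KO, beyond the others (2.60% to 21.1%), and at 18.4% in K non-rep KO, among the others (3.27% to 26.0%).

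Outside chromosome 11 fewer peaks were common to both knockouts than were held by 1 of them. Of the K rep KO peaks 43.4% were shared (25083 peaks; 43.0% to 43.8%), and of the K non-rep KO peaks 49.5% (25361 peaks; 49.1% to 49.9%). Joined into regions, the 2 lists gave 82882 regions, of which 24299 were held by both, 32694 by K rep KO alone and 25889 by K non-rep KO alone. By chromosome the shared percent of K rep KO peaks ran between 36.4 on chromosome 2 and 65.4 on chromosome 18. That of K non-rep KO peaks ran between 40.5 and 70.6, with the same chromosomes at the ends.

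On chromosome 11 the shares were turned about: 54.1% of the K rep KO peaks were shared (714 peaks; 51.4% to 56.7%), and 33.2% of the K non-rep KO peaks (712 peaks; 31.2% to 35.2%). Of 2740 joined regions there, 699 were held by both, 607 by K rep KO alone and 1434 by K non-rep KO alone. The longer list has the lower share by arithmetic, so these shares add no evidence to the numbers of peaks. Without 50 to 55 Mb, 57.9% of K rep KO peaks and 31.8% of K non-rep KO peaks were shared.

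Strong and wide peaks recurred more often than weak and narrow ones. Outside chromosome 11, the lowest quintile of the K rep KO list by −log10 q had 26.2% of its peaks shared and the highest quintile 80.1%. In K non-rep KO these were 34.8% and 84.5%. By width, the narrowest quintile of K rep KO peaks had 20.3% shared and the widest 84.0%, beside 24.8% and 86.8% in K non-rep KO. On chromosome 11 the highest quintile by −log10 q had 91.5% of K rep KO peaks shared and 78.5% of K non-rep KO peaks. The lowest quintile there had 35.4% of K rep KO peaks shared and 18.7% of K non-rep KO peaks. In the K non-rep KO list the gap between chromosome 11 and the rest was therefore wider in the lowest quintile than in the highest. In the K rep KO list chromosome 11 lay above the rest, and the gap was not wider in the lowest quintile. The percents there were 35.4 and 26.2 in the lowest and 91.5 and 80.1 in the highest.

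**Figure D4:**
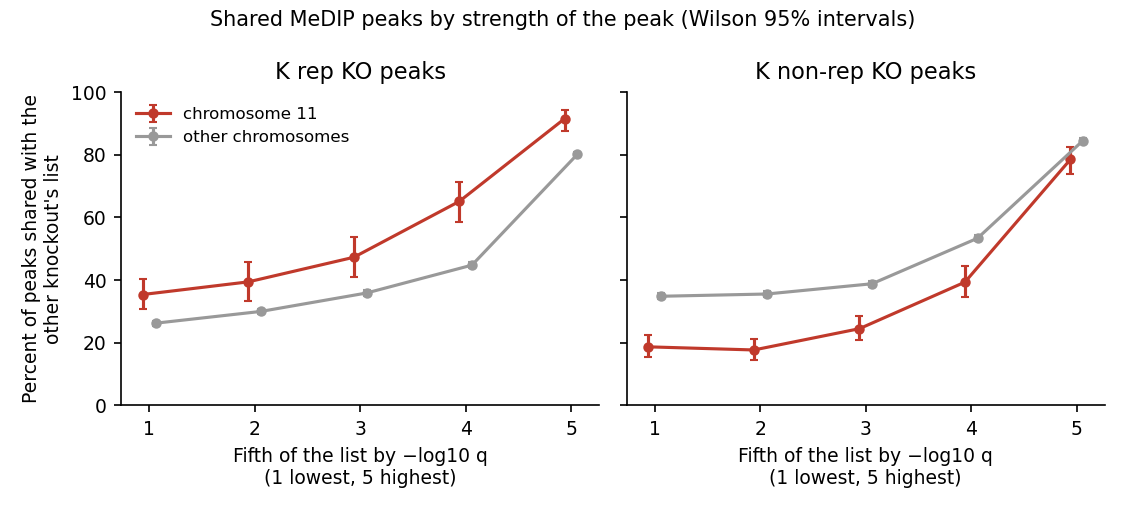
Percent of peaks shared with the other knockout's list, by quintile of −log10 q (1 lowest, 5 highest; quintiles of the whole list), for K rep KO peaks (left) and K non-rep KO peaks (right), with Wilson 95% intervals. In K rep KO chromosome 11 (red) lies above the other chromosomes (grey), with 91.5% and 80.1% in the highest quintile, and in K non-rep KO it lies below, with 78.5% and 84.5%.

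Peaks held by 1 knockout were narrower and weaker than shared ones, and fewer of them lay in another list. Outside chromosome 11 the median width was 424 bp for K rep KO alone and 766 bp for its shared peaks, and 409 bp and 723 bp in K non-rep KO. Calling peaks shared at 1 bp of overlap itself favours wide ones. Of peaks in K rep KO alone, 41.8% overlapped an EV peak, 24.8% a KD peak and 13.2% a WT peak. Of peaks in K non-rep KO alone, these were 38.7%, 21.8% and 12.8%. Of shared peaks as K rep KO has them, 80.9% overlapped EV, 64.7% KD and 58.7% WT. The EV list is the longest of these and the WT list the shortest, so the order of the percents does not rank likeness. None of these 3 lists held 45.3% of the peaks of K rep KO alone and 48.6% of those of K non-rep KO alone, beside 10.0% of the shared peaks in each knockout. A peak of the other knockout lay within 10 kb of 61.7% of the peaks of K rep KO alone and 62.5% of those of K non-rep KO alone. The share that peak density alone would give was not worked out.

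Regions held by all 4 other lists show what a list lacks. Outside chromosome 11, K rep KO lacked 7.06% of such regions (844 of 11957) and K non-rep KO lacked 9.79% (1206 of 12319). On chromosome 11, K rep KO lacked 12.2% (53 of 433; 9.48% to 15.7%) and K non-rep KO 9.09% (38 of 418; 6.69% to 12.2%). The lack in K rep KO on chromosome 11 was thus larger than elsewhere in that list, its interval lying above 7.06%, while the intervals of both knockouts on chromosome 11 overlapped. In the remaining lists it was 5.94% on chromosome 11 and 4.49% elsewhere in EV, 18.3% and 16.3% in KD, and 16.1% and 25.3% in WT.

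Peaks lay in genes at the same rate in both knockouts away from chromosome 11. Protein-coding gene bodies held 52.1% of K rep KO peaks and 52.1% of K non-rep KO peaks. Peaks of 1 knockout alone lay there more often (55.7% in K rep KO, 57.5% in K non-rep KO) than shared peaks (47.5% in K rep KO, 46.6% in K non-rep KO). On chromosome 11 gene bodies held 45.8% of the K rep KO peaks (43.1% to 48.5%) and 53.1% of the K non-rep KO peaks (51.0% to 55.2%). The gene-poor segment around the centromere, where K rep KO had as many peaks, is part of both counts.

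Single genes were compared by the peaks in the gene body with 2 kb on either side. Outside chromosome 11, 4512 protein-coding genes had at least 5 peaks in the lists combined. With 1 added to each number, 10.4% of them had at least 2 times more peaks in K rep KO and 4.63% had at least 2 times fewer. On chromosome 11, of 139 such genes, 0% had at least 2 times more and 31.7% (44 genes) had at least 2 times fewer. Of all chromosome 11 genes with any peak, K rep KO had more in 14.1% and fewer in 66.8%, beside 44.4% and 31.8% on the other chromosomes. Among peaks with −log10 q of 5 or more, 213 genes outside chromosome 11 had at least 2 times more and 38 at least 2 times fewer. On chromosome 11 the numbers were 0 and 4, against 470, 209, 0 and 44 for all peaks. Fewer genes could be counted under that cut, so these numbers are not shares. With the K rep KO list cut to the length of the K non-rep KO list by −log10 q, 337 genes outside chromosome 11 had at least 2 times more and 284 at least 2 times fewer, and on chromosome 11 the numbers were 0 and 49.

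**Figure D5:**
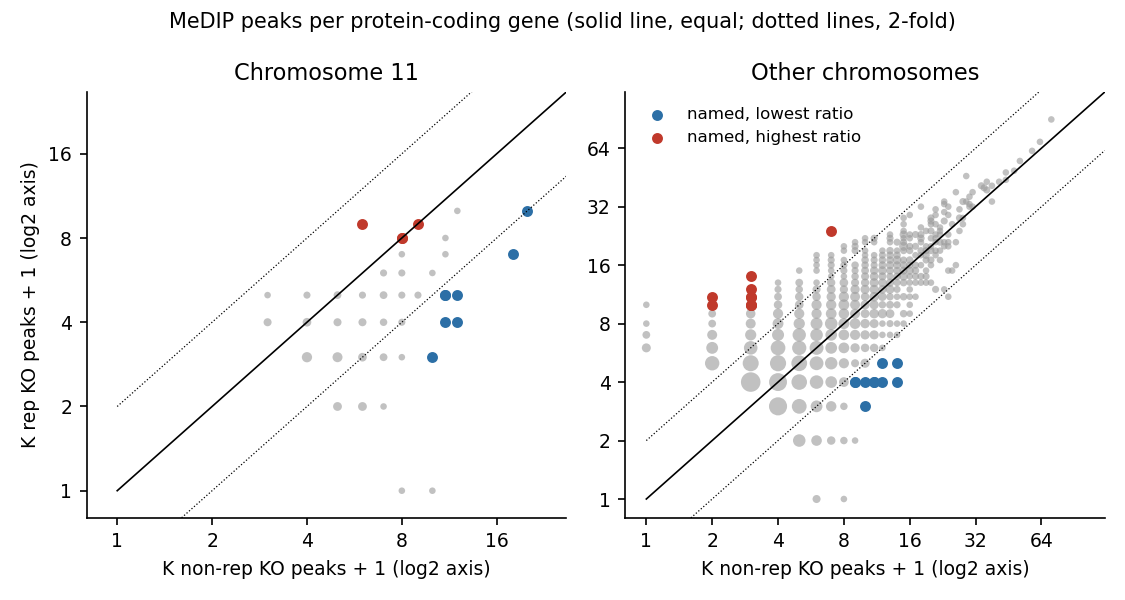
Peaks per protein-coding gene, plus 1, in K rep KO (vertical, log2 axis) and K non-rep KO (horizontal, log2 axis), for genes with at least 5 peaks in the lists combined, on chromosome 11 (left) and the other chromosomes (right); grey points grow with the number of genes. On chromosome 11 no gene lies above the upper dotted line of 2-fold and 44 genes lie on or below the lower one, while on the other chromosomes 10.4% lie on or above and 4.63% on or below.

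The 10 genes with the highest and the 10 with the lowest ratio outside chromosome 11 were taken among genes with at least 10 peaks in the lists combined. CTBP2, a transcriptional corepressor gene (chr10:124984317-125162463), held 23 peaks in K rep KO, against 6 in K non-rep KO, beside 25 in EV, 14 in KD and 3 in WT. The interval of the ratio of K rep KO to K non-rep KO was 1.52 to 11.5. UBE3C, a ubiquitin ligase gene (chr7:157138926-157269370), held 13 in K rep KO, against 2 in K non-rep KO, beside 21 in EV and 13 in KD. CLUH, whose protein binds mRNAs of mitochondrial proteins, held 10 in K rep KO, against 1 in K non-rep KO, beside 11 in EV. In all 3 genes K non-rep KO held fewer peaks than EV and KD, and K rep KO held more than WT. The EV list is the longest and the WT list the shortest, so no likeness to EV or WT is read from these orders.

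MAGI1, a scaffold gene of cell junctions, held 11 in K rep KO, against 2 in K non-rep KO, and TMEM117 held 9 of K rep KO and 1 of K non-rep KO. CDC27, a subunit of the anaphase-promoting complex, held 10 in K rep KO, against 2 in K non-rep KO, and has near-identical copies elsewhere, so its number is uncertain. ZNF282, a zinc finger gene, held 10 of K rep KO and 2 of K non-rep KO. The calcium pump gene ATP2A3, the microtubule gene EML1 and the F-box gene FBXO21 each held 9 in K rep KO, against 2 in K non-rep KO, with ratio intervals that included 1. With −log10 q of 5 or more, the log2 ratios of MAGI1 and TMEM117 were 0.58 each, against 2 and 2.32 for all peaks. Those of the other high-end genes then lay between 1.32 (UBE3C and ZNF282) and 2.32 (FBXO21).

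At the low end SSU72, an RNA polymerase phosphatase gene (chr1:1541673-1574863), held 3 in K rep KO, against 13 in K non-rep KO, beside 7 in EV and 8 in KD. SKI, a repressor of TGF-beta signalling (chr1:2228319-2310213), held 4 in K rep KO, against 13 in K non-rep KO, beside 14 in EV. These 2 genes, which lie near each other on chromosome 1, had ratio intervals below 1. DNAAF9 held 2 in K rep KO, against 9 in K non-rep KO, and CAMSAP1, which binds the minus ends of microtubules, held 3 of K rep KO and 11 of K non-rep KO. ADD1, a membrane skeleton gene, and UNC13D, a gene of granule release, each held 3 in K rep KO, against 10 in K non-rep KO. XRCC3, a gene of homologous recombination, held 3 of K rep KO and 9 of K non-rep KO. IKBKG, the regulatory subunit of the NF-kappa-B kinase, held 4 in K rep KO, against 11 in K non-rep KO, and shares sequence with a near-identical copy. The readthrough gene ATP5MF-PTCD1 and the endocytosis gene FCHO1 each held 3 in K rep KO, against 8 in K non-rep KO. The ratio intervals of the 8 genes from DNAAF9 on included 1. Among peaks with −log10 q of 5 or more SKI and IKBKG lay on the other side, with more peaks in K rep KO, and the log2 ratios of SSU72 and FCHO1 were 0.

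On chromosome 11 the low end spread over both arms. SHANK2, a synaptic scaffold gene at 11q13 (chr11:70467854-71253234), held 6 in K rep KO, against 17 in K non-rep KO, beside 47 in EV and 13 in KD. LRP5, a Wnt co-receptor gene (chr11:68298412-68449275), held 9 in K rep KO, against 19 in K non-rep KO, beside 40 in EV and 22 in KD. CPT1A, which brings fatty acids into mitochondria, held 3 in K rep KO, against 11 in K non-rep KO. KDM2A, a histone demethylase gene whose protein binds CG-rich DNA, held 4 of K rep KO and 11 of K non-rep KO. The Notch co-activator gene MAML2 and the kinase gene BRSK2 each held 4 in K rep KO, against 10 in K non-rep KO. SBF2 held 3 of K rep KO and 10 of K non-rep KO, and PTDSS2, a phosphatidylserine synthase gene, held 2 of K rep KO and 9 of K non-rep KO. Only SHANK2 of these 8 had an interval below 1; against the 1.13 of the other chromosomes the intervals of LRP5 (0.189 to 1.10), CPT1A (0.0489 to 1.03) and PTDSS2 (0.0234 to 1.07) also lay below. Counting only peaks whose −log10 q was at least 5, SHANK2 had a log2 ratio of -0.32, those of PTDSS2 and BRSK2 were 0, and LRP5 had more peaks in K rep KO.

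At the other end of chromosome 11 the ratio did not reach 2-fold. AHNAK, which encodes a very large scaffold protein, held 8 in K rep KO, against 5 in K non-rep KO. The transcription factor gene ZNF143 held 8 of K rep KO and 8 of K non-rep KO, and the nuclear import gene IPO7 and CHID1 each held 7 of K rep KO and 7 of K non-rep KO.

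Gene lists of chromosome 11 differed in their peak numbers. The imprinted domain at 11p15.5 with its neighbours (21 genes) had 18 peaks in K rep KO, against 47 in K non-rep KO, a ratio of 0.383 (0.209 to 0.672). Of its 14 genes with a peak, 0 held more in K rep KO, 13 held fewer and 1 held as many. MRPL23, a mitochondrial ribosome gene, held 0 in K rep KO, against 9 in K non-rep KO, beside 17 in EV and 6 in KD. LSP1, a leukocyte actin-binding gene, held 2 of K rep KO and 6 of K non-rep KO, and OSBPL5, an oxysterol-binding protein gene, held 4 of K rep KO and 7 of K non-rep KO. The 11q13 cluster of cyclin D1 and FGF genes (11 genes) had 17 peaks in K rep KO, against 50 in K non-rep KO, a ratio of 0.340 (0.184 to 0.600), and all of its 9 genes with a peak held fewer. This list includes SHANK2, named above, with 6 of these peaks in K rep KO, against 17 in K non-rep KO. PPFIA1 held 0 of K rep KO and 7 of K non-rep KO, and the chloride channel gene ANO1 held 5 of K rep KO and 9 of K non-rep KO. These counts stand beside 89 genes with more and 422 with fewer among all 632 chromosome 11 genes with a peak, and nothing particular to these lists is read from them.

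Other chromosome 11 lists held few peaks. The mucin genes had 12 in K rep KO, against 15 in K non-rep KO, of which MUC5B held 7 of K rep KO and 10 of K non-rep KO. The WT1 and PAX6 region at 11p13 had 7 in K rep KO, against 13 in K non-rep KO, and WT1 and PAX6 each held 2 of K rep KO and 4 of K non-rep KO. The 5 globin genes had 0 in both, and the 9 matrix metalloproteinase genes had 1 in K rep KO, against 2 in K non-rep KO.

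Outside chromosome 11 no list had a ratio whose interval left out that of all the other chromosomes. The lists lay between 0.856 for Notch genes and 1.13 for senescence and secretory genes, relative to the ratio of all peaks there. The counts of list members stand beside 44.4% with more and 31.8% with fewer peaks in K rep KO among all 12595 protein-coding genes there with a peak. Among genes of DNA methylation and demethylation (16 listed), 10 of 14 with a peak had a higher number in K rep KO and 3 held fewer. UHRF1, which brings DNMT1 to newly copied DNA, held 18 in K rep KO, against 13 in K non-rep KO. The maintenance methyltransferase gene DNMT1 held 11 of K rep KO and 9 of K non-rep KO, the de novo methyltransferase gene DNMT3A held 9 of K rep KO and 11 of K non-rep KO, and TET1, which oxidises 5-methylcytosine, held 9 of K rep KO and 6 of K non-rep KO. Of 19 genes of H3K9 methylation and HP1 with a peak (23 listed), 9 held more and 5 fewer. KDM4B, an H3K9 demethylase gene, held 45 in K rep KO, against 28 in K non-rep KO, beside 59 in EV, and EHMT1, an H3K9 methyltransferase gene, held 31 of K rep KO and 23 of K non-rep KO. KDM3B, another H3K9 demethylase gene, held 4 in K rep KO, against 9 in K non-rep KO.

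Of 23 Polycomb genes with a peak (27 listed), 5 held more and 10 fewer in K rep KO, where 44.4% of all genes with a peak held more and 31.8% fewer. Within them JARID2, which joins the PRC2 complex, held 19 in K rep KO, against 8 in K non-rep KO, and KDM2B held 20 of K rep KO and 22 of K non-rep KO. In the Notch list 7 of 25 with a peak (29 listed) held more and 14 fewer, and the receptor gene NOTCH1 held 16 of K rep KO and 10 of K non-rep KO. The 36 collagen genes with a peak (44 listed) included 16 with more and 11 with fewer. COL18A1 held 26 in K rep KO, against 19 in K non-rep KO, and COL26A1 held 14 of K rep KO and 5 of K non-rep KO. The 33 imprinted genes outside 11p15.5 with a peak (45 listed) included 17 with more and 11 with fewer. TRAPPC9 held 37 in K rep KO, against 30 in K non-rep KO. IGF2R, a maternally expressed receptor gene in mouse, held 6 of K rep KO and 7 of K non-rep KO. The 28 HOX genes with a peak (39 listed) included 9 with more and 8 with fewer, and HOXC4 held 4 of K rep KO and 2 of K non-rep KO.

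For the other lists too the counts stand beside 44.4% with more and 31.8% with fewer among all genes with a peak, and only members with a peak are counted. More and fewer peaks in K rep KO were held by 16 and 5 of 30 germline and cancer-testis genes, 18 and 15 of 40 Wnt genes, and 5 and 6 of 14 Hedgehog genes. They were held by 16 and 7 of 27 TGF-beta and BMP genes, 19 and 12 of 38 nuclear receptor genes, and 10 and 14 of 28 semaphorin and plexin genes. They were held by 12 and 10 of 24 histone deacetylase and corepressor genes, 7 and 3 of 14 senescence and secretory genes, 6 and 8 of 19 innate nucleic acid sensing and interferon genes, and 15 and 8 of 32 cell cycle genes. In the germline list TEX14 held 10 in K rep KO, against 13 in K non-rep KO, and MEI1 held 11 of K rep KO and 9 of K non-rep KO.

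Windows of 1 Mb located the largest differences. Outside chromosome 11, 1310 windows had at least 20 peaks in the lists combined, of which 1.76% had at least 2 times more (with 1 added) in K rep KO and 0.305% at least 2 times fewer. On chromosome 11, 0% of 46 windows had 2 times more and 32.6% had 2 times fewer. The highest outside chromosome 11 was chr14:61000001-62000000, which holds PRKCH, HIF1A and SYT16, with 19 peaks in K rep KO, against 5 in K non-rep KO, beside 19 in EV, 15 in KD and 4 in WT. A window of chromosome 17 from 6 Mb, with XAF1, ALOX12 and TEKT1, had 26 peaks of K rep KO and 8 of K non-rep KO. A window of chromosome 8 from 54 Mb, with SOX17 and RP1, had 20 peaks of K rep KO and 7 of K non-rep KO. In these windows EV held 19 to 36 peaks.

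The lowest was chr1:7000001-8000000, with CAMTA1 and the clock gene PER3, which had 11 peaks in K rep KO, against 25 in K non-rep KO, beside 32 in EV and 9 in KD. A window of chromosome 1 from 19 Mb, with UBR4 and CAPZB, had 9 peaks of K rep KO and 19 of K non-rep KO. The window chr1:207000001-208000000, with the complement regulator genes CR1, CR2, CD55 and CD46, had 8 peaks of K rep KO and 17 of K non-rep KO. The intervals of the last 2 windows included 1.

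Runs of neighbouring regions held by 1 knockout, with no region of the other between them, were also counted. Outside chromosome 11, 32694 of 82882 regions were held by K rep KO alone and 25889 by K non-rep KO alone. On chromosome 11, 1434 of 2740 were held by K non-rep KO alone and 607 by K rep KO alone. The run lengths that these shares alone would give were not worked out. The longest run of K rep KO had 16 regions, at chr17:16737208-17214262, and covers TNFRSF13B, MPRIP and FLCN. Of these regions 7 were held by EV, 4 by KD and 2 by WT. A run of 14 regions lay in NFAM1 (chr22:42375249-42460390) and another of 14 in CTBP2 (chr10:125005061-125126627). Of the CTBP2 regions 3 were held by EV, 4 by KD and 2 by WT, and the authors' fold of its peaks lay between 2.42 and 6.25. For K non-rep KO the longest runs outside chromosome 11 had 10 regions in CPEB3, 10 over DCAF10, SLC25A51 and SHB on chromosome 9, and 9 in CAMKK2 within 31.2 kb.

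On chromosome 11 the longest run of K non-rep KO had 20 regions in 181 kb, at chr11:1880183-2061461, covering LSP1, PRR33, TNNT3 and MRPL23, next to the imprinted genes of 11p15.5. Of these 20 regions, 11 were held by EV, 5 by KD and 1 by WT, and the folds lay between 2.97 and 6.93. Further runs had 12 regions at chr11:71569444-71910785, a stretch with KRTAP5-11 and defensin genes, and 11 at chr11:31814663-32334179, with PAX6 and RCN1. The longest run of K rep KO on this chromosome had 6 regions within 20.1 kb, at chr11:51875383-51895498 in the centromeric segment, where no protein-coding gene is annotated.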

How the data were processed

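Per the labels' protocols, sonicated HEK293T DNA was captured with an anti-5mC antibody. The submitters' processing notes name GRCh38, Bowtie2, MACS2 and deepTools, without versions or settings. Each condition has 1 narrowPeak list deposited by the authors, with a fold enrichment (a ratio over background) and −log10 p and −log10 q values per peak. Quintiles and orders by −log10 q were taken within a list. The alternative runs with a cut of −log10 q or fold put the same cut on both lists, without adjusting for depth. Pileup and background, solved from fold and p, were also set side by side for both knockouts. The lists hold no read counts. There was 1 further list, named for no label, which was not used.

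Peaks off chromosomes 1 to 22 and X were left out (4.10% of K rep KO, 4.13% of K non-rep KO). Pileup and background were solved from the fold, (pileup + 1)/(background + 1), with p taken as a Poisson upper tail, to a tolerance of 0.001, which succeeded for 99.96% of both lists; the lowest background over the shortest peak gave relative depth. Intervals are 95%, exact Clopper-Pearson for ratios and Wilson for shares (SciPy 1.17.1, pandas 2.3.3). Overlaps and the solution were tested on simulated data. Genes and promoters came from RefSeq GRCh38.p14; 630 of 633 listed genes matched, and promoters of chromosome 8 were not analysed here. The comparison, its gene lists (23) and the rule for named genes were chosen with earlier results of these data known. That rule takes, from protein-coding genes with 10 peaks or more over both lists, the 10 lowest and 10 highest log2((peaks + 1)/(peaks + 1)) outside chromosome 11 and the 8 lowest and 4 highest on it, passing over overlapping genes. Up to 4 members per gene list, those with the most peaks over both lists, may be named too.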

Additional observations from a re-analysis of the deposited data

How the results depend on the processing

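The ratio on chromosome 11 stayed below 1 under each alternative run. With −log10 q of 5 or more, the ratios were 1.33 outside chromosome 11 and 0.757 on it; 40.7% of K rep KO and 54.5% of K non-rep KO peaks were shared outside it, and 42.8% of K non-rep KO peaks on it. With a fold enrichment of 4 or more the ratio outside was 1.17, the shares outside 36.7% and 43.1%, and the share of K rep KO peaks on chromosome 11 was 49.9%. With the longer list cut to the length of the shorter the ratios were 1.02 and 0.540, the shares outside 45.2% and 46.9%, and that of K non-rep KO on chromosome 11 30.6%; with equal totals a ratio below 1 on chromosome 11 fixes one above 1 elsewhere, so the 1.02 says nothing about an excess there. By covered length the ratios were 1.15, 0.720 and, for chromosome 11 relative to the rest, 0.626. Without 50 to 55 Mb the ratio on chromosome 11 was 0.552, the relative one 0.489, and 57.9% of its K rep KO peaks were shared.

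With a reciprocal overlap of 50% or more, 30.4% of K rep KO and 34.3% of K non-rep KO peaks were shared outside chromosome 11, and 38.4% and 23.6% on it. With gaps of at most 500 bp allowed these were 47.2%, 53.5%, 57.3% and 35.4%. Joining peaks at most 1 kb apart, chosen after seeing the data like the shares without 50 to 55 Mb, gave a relative ratio of 0.545.

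Genes with at least 2 times more and fewer peaks in K rep KO numbered 470 and 209 outside chromosome 11. With −log10 q of 5 or more they were 213 and 38, with at least 10 peaks required 141 and 42, and with lists of equal length 337 and 284. On chromosome 11 the genes with fewer peaks then numbered 4, 10 and 49, against 44 for all peaks. The q and 10-peak settings leave fewer genes to count. At least 10 peaks in the lists combined were held by 1718 genes outside chromosome 11 and 31 on it, against 4512 and 139 with at least 5. How many genes were counted under the q and equal-length settings was not worked out, so those numbers are not shares. Of 32 named genes, 20 moved by less than 1 on the log2 scale with −log10 q of 5 or more, 9 moved further, and the log2 ratio turned to 0.42 for SKI, 1.32 for IKBKG and 0.42 for LRP5; the cause was not tested. No paired analysis was possible because each condition has 1 list. The number of peaks limits single genes: most ratio intervals of named genes included 1.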
